A study of Mus musculus with 8 samples.

Results

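The genes described here encode the subunits and assembly factors of respiratory complexes II, III, IV and V and the electron carrier cytochrome c, measured in cultured mouse cortical neurons with and without the histone variant H2BE. They are the rows of the authors' deposited table whose symbol begins with Sdha, Sdhb, Sdhc, Sdhd, Uqcr, Uqcc, Cox and a digit, or Atp5, or is Cyc1 or Cycs, without symbols that contain -ps. The rule gave 65 of 26229 genes: 8 of complex II, 13 of complex III with cytochrome c, 27 of complex IV and 17 of complex V. It reads symbols and no measured value. The rule also takes in Cox20b, which GENCODE annotates as a processed pseudogene and which is counted with complex IV.

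Polyadenylated RNA was sequenced from cortical neurons that had been taken from mouse embryos at E16.5 and kept for 12 days in culture. The 4 libraries labelled WT came from wild-type neurons and the 4 labelled KO from H2BE-KO neurons, in which mCherry was knocked in at the H2BE gene H2bc21. Libraries of 1 genotype are biological replicates by their labels, which do not say how many embryos each held or which part of the gene was replaced. Each log2 fold change below, its standard error (SE) and its adjusted p are those of the authors' deposited table, given as knockout over wild type. Values of single libraries were not analysed here, so the spread between the 4 and 4 libraries enters only through the SE, and the overlap of the groups cannot be given. The targeted gene H2bc21 (chromosome 3, 96221119 to 96223738 in GRCm38, 1 exon) set the direction: with its log2 fold change read as -3.45 (SE 0.19, adjusted p = 4.49e-68), its knockout level was 9.12% of wild type. If that reading were wrong, every "higher" and "lower" would swap.

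The respiratory chain sits in the inner mitochondrial membrane. Complex II passes electrons from succinate to ubiquinone, complex III passes them from ubiquinol to cytochrome c, and complex IV hands them to oxygen. Complex V, the ATP synthase, uses the proton gradient built by complexes III and IV, and by complex I, to make ATP. Neurons rely on this chain for the ATP that ion pumping and synaptic transmission use, and several complex IV subunits have paralogs that replace each other in muscle, lung or testis.

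Transcripts of the respiratory complexes lay mostly below wild type in the knockout. Of the 65 genes, 62 passed the authors' filter on low counts and were tested, 61 of them had a log2 fold change below 0, and 33 fell at an adjusted p under 0.05, whereas 10.9% of all 18085 tested genes were lower by the same threshold. None was higher by DESeq2, against 11% of all tested genes. At an unadjusted p under 0.05, 45 were lower, against 16.9% of all tested genes, and 1, Cox6b2, was higher, against 16.1%. The median log2 fold change of the 62 was -0.54, or 68.8% of the wild-type level, beside -0.02 for all tested genes, of which 52.2% lay below 0. The shifts were mostly moderate: 52 genes lay between -0.25 and -1, and 3, Cox6a2, Uqcrh and Cycs, lay at or below -1. The 3 genes not tested, Cox4i2, Cox8b and Cox20b, had mean normalized counts of 0.899, 1.75 and 0.631, and the lowest mean count of any tested gene was 2.99. All members were measured in the same 8 libraries, so they are not independent of each other.

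Levels for each genotype can be derived from the deposited mean count and fold change if both genotypes are given equal weight. Summed over the 65 genes, this derived level went from 484395 normalized counts in wild type to 322549 in the knockout, which is 66.6% of wild type. As a share of all counts it went from 1.20% to 0.832%. By complex, the knockout sum was 70.7% of wild type for complex II, 63.1% for complex III with cytochrome c, 60.2% for complex IV and 70.3% for complex V. These sums carry no error of their own, and the differences between complexes were not tested.

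**Figure D1:**
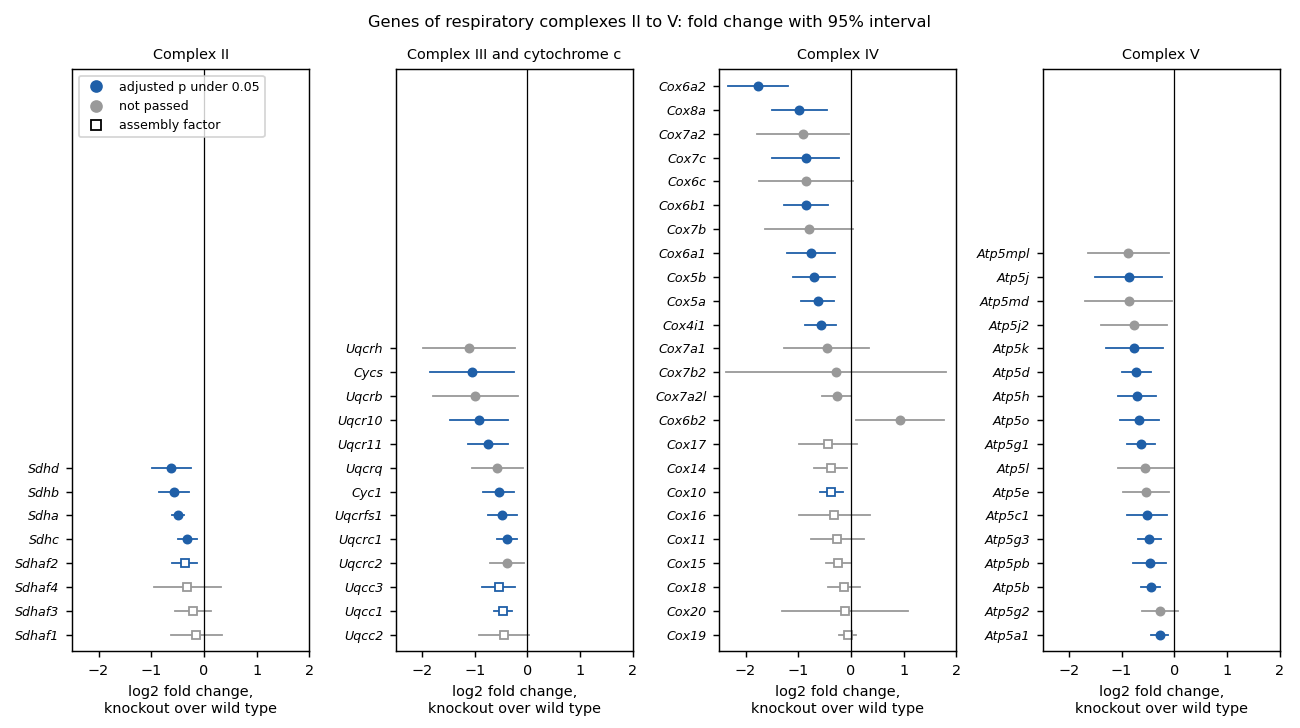
Log2 fold change of each tested gene, knockout over wild type (horizontal axis), with its 95% interval, in a panel for each complex; filled circles are subunits and cytochrome c, open squares assembly factors, and blue marks an adjusted p under 0.05. Of 62 genes, 61 lie left of 0, and Cox6b2 at 0.93 lies right of it.

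In RefSeq's GRCm38.p6 annotation, 51 of the 65 genes had a promoter window, defined as 250 bases before to 50 bases after a transcription start. These windows were searched on both strands for the letters of 4 factors known from nuclear respiratory genes. They are GCATGCGC for NRF1, CCGGAAG for the ETS family that includes GABP (also called NRF2), ATGGCGG for YY1 and AAGGTCA for the estrogen-related receptors (ERR). The ETS letters occurred in 21 of the 51 genes (41.2%), against 17.3% of 12325 tested genes with a window and 9.93% of all 27025. The NRF1 letters occurred in 8 (15.7%), against 5.40% and 3.05%. For YY1 the numbers were 5 genes (9.80%), against 8.15% and 4.69%, and for ERR 6 genes (11.8%), against 3.97% and 5.38%. All 8 NRF1 matches belonged to the 37 subunit genes and none to the 14 assembly factors, while ETS matches were found in 13 and 8. Among genes that fell, 6 of 28 had an NRF1 match and 11 of 28 an ETS match, beside 2 and 10 of the 22 tested genes that did not pass. A match is a run of letters and was not measured as a bound site.

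The stretches below show 1 or 2 genes of each complex, chosen to show the letters where they occur and, for Cox6b2, the promoter of the gene whose fold change was above 0. Each runs 5′ to 3′ on the gene's strand in GRCm38.p6, holds only bases before the RefSeq start that lie in no annotated exon, and has the matched letters in capitals. All 6 genes lie on the minus strand. Sdhd (chr9:50603850-50603909) has the ETS letters 46 to 40 bases before its start, read on the other strand. Uqcr11 (chr10:80406831-80406991) has them 66 to 60 bases before, on its own strand. Cycs (chr6:50566570-50566642) has the NRF1 letters 60 to 53 bases before. Cox6a1 (chr5:115348982-115349128) has them on both strands from 162 to 153 bases before, where the 2 matches overlap. Atp5g3 (chr2:73911327-73911496) has the ERR letters 52 to 46 bases before, on the other strand. Outside the printed bases, the window of Sdhd also has the ERR letters, beginning 36 bases after its start. That of Uqcr11 has the NRF1 letters beginning 4 bases before, and that of Cox6a1 the ETS letters beginning 16 bases before. Cox6b2 (chr7:4753095-4753225) has none of the 4 in its window.
Sdhd: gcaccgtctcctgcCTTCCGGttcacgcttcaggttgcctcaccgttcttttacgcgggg
Uqcr11: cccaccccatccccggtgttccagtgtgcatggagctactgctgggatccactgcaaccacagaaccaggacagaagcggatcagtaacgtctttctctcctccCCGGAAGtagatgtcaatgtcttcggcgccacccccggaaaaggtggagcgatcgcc
Cycs: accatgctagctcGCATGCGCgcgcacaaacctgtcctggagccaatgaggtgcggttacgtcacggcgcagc
Cox6a1: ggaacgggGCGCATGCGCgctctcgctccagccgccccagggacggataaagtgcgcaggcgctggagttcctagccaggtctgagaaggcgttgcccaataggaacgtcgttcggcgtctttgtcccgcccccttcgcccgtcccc
Atp5g3: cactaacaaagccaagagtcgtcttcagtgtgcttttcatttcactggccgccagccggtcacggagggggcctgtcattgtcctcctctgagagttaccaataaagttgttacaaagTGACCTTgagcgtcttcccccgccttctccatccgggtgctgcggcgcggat
Cox6b2: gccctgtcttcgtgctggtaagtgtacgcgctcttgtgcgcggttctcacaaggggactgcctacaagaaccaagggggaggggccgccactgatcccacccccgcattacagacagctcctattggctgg

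Complex II was lower in all 4 of its subunits, beside 10.9% of all tested genes. Sdha, the flavoprotein that oxidizes succinate (chromosome 13, 74322254 to 74350280, minus strand), fell to 71.0% of wild type, or -0.49 on the log2 scale (SE 0.06, adjusted p = 6.12e-15), with the smallest adjusted p of the 65 genes, at a mean normalized count of 13092. Sdhb, the iron-sulfur subunit, fell by 0.57 on the log2 scale (SE 0.14, adjusted p = 9.22e-04). Of the membrane anchors that bind ubiquinone, Sdhd was at -0.62 (SE 0.19, adjusted p = 0.00823) and Sdhc at -0.32 (SE 0.09, adjusted p = 0.00527), and both passed. The catalytic pair thus had a median of -0.53 and the anchors of -0.47. Per kb of exon, Sdhd had the highest mean count of the 4 subunits (5563) and Sdhc the lowest (1219).

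Among the 4 assembly factors of complex II, Sdhaf2 passed as lower, beside 10.9% of all tested genes. Sdhaf2, needed for attaching the flavin cofactor to Sdha, fell by 0.36 (SE 0.12, adjusted p = 0.0180). Sdhaf4 had a log2 fold change of -0.32 (SE 0.33), Sdhaf3 of -0.21 (SE 0.18) and Sdhaf1, which serves the insertion of iron-sulfur clusters into Sdhb, of -0.15 (SE 0.24). Their intervals include 0. These 3 genes had mean counts of 144 to 452, and 69.6% of the exon length of Sdhaf1 is shared with a gene on the opposite strand, so part of its count is uncertain. The median of the 4 factors was -0.26.

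In complex III, 6 of the 10 genes made up by its 9 subunits and cytochrome c fell, and 2 of 3 assembly factors. Of all tested genes, 10.9% were lower. The redox subunits both passed: Cyc1, the cytochrome c1 heme protein, was at -0.54 (SE 0.15, adjusted p = 0.00297), and Uqcrfs1, the Rieske iron-sulfur protein, at -0.48 (SE 0.14, adjusted p = 0.00475). The core proteins Uqcrc1 and Uqcrc2 had the same log2 fold change of -0.40, but Uqcrc1 passed (SE 0.10, adjusted p = 6.41e-04) and Uqcrc2 did not (SE 0.16, adjusted p = 0.0666). The small subunits had the lowest values, with a median of -0.92. Uqcr11 fell by 0.75 (SE 0.19, adjusted p = 0.00131) and Uqcr10 by 0.92 (SE 0.28, adjusted p = 0.00768). Uqcrh, the hinge protein, was at -1.11, yet with an SE of 0.45 it did not pass (adjusted p = 0.0577). Neither did Uqcrb at -0.99 (SE 0.41, adjusted p = 0.0680) nor Uqcrq at -0.57 (SE 0.25, adjusted p = 0.0802).

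Cycs, the somatic cytochrome c gene, fell to 48.2% of wild type, or -1.05 on the log2 scale (SE 0.40, adjusted p = 0.0436). It lies on chromosome 6 from 50562563 to 50566538. Among the genes of complex III and cytochrome c that passed, Cycs had the lowest fold change and the adjusted p nearest to the threshold. It has 2 annotated pseudogene copies of at least 98% identity, so its count is uncertain.

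The assembly factors of complex III differed less from the subunits than those of complexes II and IV, by their medians. Uqcc1, which acts on newly made cytochrome b, fell by 0.46 (SE 0.09, adjusted p = 2.56e-06), and its mean count was 2670. Uqcc3 fell by 0.55 (SE 0.16, adjusted p = 0.00510) and Uqcc2 was at -0.44 (SE 0.24, adjusted p = 0.190). Their median was -0.46, beside -0.66 for the 9 subunits and Cycs. This difference was not tested.

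Complex IV held both the lowest and the highest fold change of the set. Of its 24 tested genes, 9 fell, 8 of them subunits, beside 10.9% of all tested genes. The subunits with a single form in this list, Cox5a (-0.63, SE 0.16, adjusted p = 0.00120), Cox5b (-0.70, SE 0.21, adjusted p = 0.00600) and Cox7c (-0.86, SE 0.32, adjusted p = 0.0390), passed. The count of Cox7c is uncertain, since it has 2 near-identical pseudogenes. Cox6c was as low, at -0.85, with an SE of 0.46 (adjusted p = 0.177), the largest SE among members with a mean count of 1000 or more. All 6 isoforms of general expression were below -0.5, and their median was -0.82. Cox8a fell by 0.98 (SE 0.27, adjusted p = 0.00263), Cox6b1 by 0.85 (SE 0.21, adjusted p = 9.03e-04), Cox6a1 by 0.76 (SE 0.23, adjusted p = 0.00878) and Cox4i1 by 0.57 (SE 0.15, adjusted p = 0.00166). Cox7a2 at -0.91 (SE 0.44, adjusted p = 0.128) and Cox7b at -0.79 (SE 0.43, adjusted p = 0.179) did not pass.

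The tissue isoforms of complex IV did not move together. Cox6a2, the heart and skeletal muscle form of subunit VIa, also known from parvalbumin interneurons in brain, fell to 29.3% of wild type, or -1.77 on the log2 scale (SE 0.29, adjusted p = 8.07e-08). It lies on the minus strand of chromosome 7 from 128205435 to 128206387, in 3 exons, and its mean count was 764. Cox6b2, the testis form of subunit VIb (chromosome 7, 4751792 to 4753094), stood at 0.93 (SE 0.43), with a 95% interval of 0.09 to 1.77, and did not pass (adjusted p = 0.104) at a mean count of 52.7. The heart and muscle form Cox7a1 was at -0.46 (SE 0.41, adjusted p = 0.468) with a mean count of 32.1, and the testis form Cox7b2 at -0.28 (SE 1.06, adjusted p = 0.883) with a mean count of 4.07. Cox4i2, the lung form, and Cox8b, another heart and muscle form, were below the count needed for a test.

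Within the families, the general form was the more abundant one by mean count per kb of exon. Cox6a1 exceeded Cox6a2 12.3-fold and Cox6b1 exceeded Cox6b2 333.9-fold. Cox7a2 was 168.5-fold above Cox7a1, and Cox7b was 973.1-fold above Cox7b2. In wild type, Cox6a2 made up 9.10% of the derived Cox6a level per kb, and in the knockout 4.73%. The share of Cox6b2 in Cox6b was 0.160% in wild type and 0.547% in the knockout.

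Differences between paralogs were taken with a 95% interval that treats the 2 estimates as independent, which genes of the same libraries need not be, so no p is given. Cox6a2 minus Cox6a1 was -1.01 on the log2 scale (interval -1.74 to -0.28), so the muscle form was lower than its paralog, which had itself fallen. Cox6b2 minus Cox6b1 was 1.78 (0.84 to 2.71). For Cox7a1 minus Cox7a2 the difference was 0.45 (-0.73 to 1.63), and for Cox7b2 minus Cox7b it was 0.51 (-1.73 to 2.75), so these intervals allow a difference in either direction. Cox7a2l, which joins complexes III and IV into supercomplexes, was at -0.27 (SE 0.14, adjusted p = 0.163), and its difference from Cox7a2 was 0.64 (-0.27 to 1.55). With Cox8b and Cox4i2 near a count of 1, the intervals spanned -5.29 to 3.52 against Cox8a and -4.58 to 5.50 against Cox4i1 and show nothing about these forms.

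**Figure D2:**
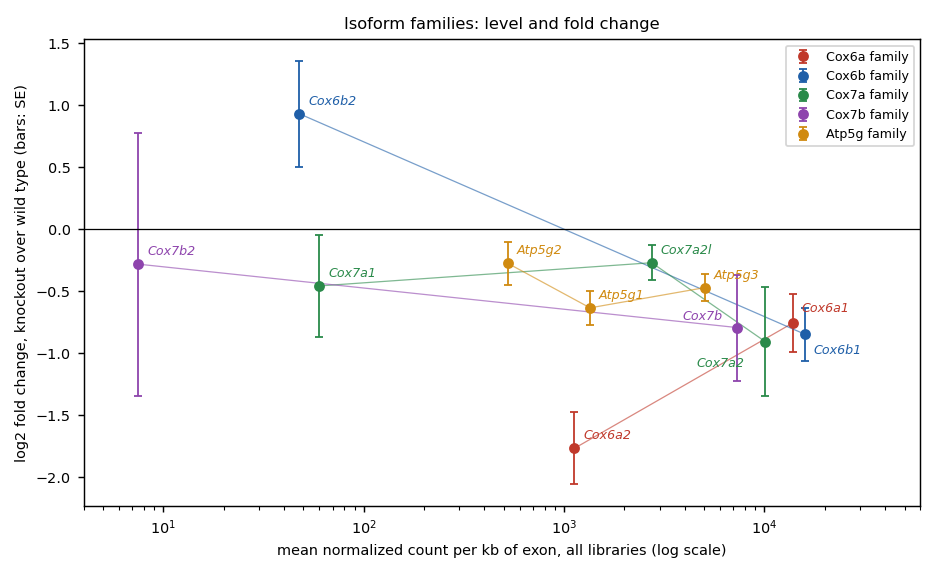
Log2 fold change, knockout over wild type, with its SE (vertical axis) against mean normalized count per kb of exon on a log scale (horizontal axis) for 5 families of paralogs, joined by lines. Cox6a2 lies 1.01 below Cox6a1, Cox6b2 lies 1.78 above Cox6b1, and the 3 Atp5g genes lie between -0.28 and -0.64.

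The assembly factors of complex IV were closer to 0 than its subunits. Of 9 tested, Cox10, the enzyme that makes heme O for the Cox1 protein, passed, at -0.37 (SE 0.11, adjusted p = 0.00744). Cox10 alone makes up 11.1% of these 9, beside 10.9% lower among all tested genes. Cox15, the next enzyme of the same heme pathway, was at -0.24 (SE 0.12, adjusted p = 0.129). Cox19, a copper-handling factor, was at -0.06 with an SE of 0.08, so its 95% interval of -0.23 to 0.10 leaves out a fall of the size seen in the general subunits. Cox14 at -0.38 (SE 0.16, adjusted p = 0.0675), the copper chaperone Cox17 at -0.44 (SE 0.28), Cox16 at -0.32 (SE 0.34), Cox11 at -0.26 (SE 0.26), Cox18 at -0.13 (SE 0.16) and Cox20 at -0.11 (SE 0.61) did not pass. Exons of other annotated genes cover 91.1% of the exon length of Cox20, 56.8% of that of Cox16 and 48.3% of that of Cox11, so these counts are uncertain. The median of the 9 was -0.26, beside -0.76 for the 15 tested subunits.

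In complex V, 11 of 17 genes fell, and the other 6 had log2 fold changes below 0 that did not pass. Of all tested genes, 10.9% were lower. In the catalytic F1 part, Atp5b, the beta subunit that carries the catalytic sites (chromosome 10, 128083273 to 128090391), fell by 0.45 (SE 0.09, adjusted p = 4.04e-05) and Atp5a1, the alpha subunit, by 0.27 (SE 0.08, adjusted p = 0.00615). These 2 had the highest mean counts of the set, 60666 and 43033. The delta subunit Atp5d was lower still, at -0.72 (SE 0.14, adjusted p = 5.67e-06). Of the other F1 genes, the gamma subunit gene Atp5c1 was at -0.52 (SE 0.19, adjusted p = 0.0335) and the epsilon subunit gene Atp5e at -0.54 (SE 0.22), which did not pass (adjusted p = 0.0649).

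All 4 genes of the peripheral stalk, which holds the catalytic head still against the turning rotor, fell. Their log2 fold changes were -0.71 for Atp5h (SE 0.18, adjusted p = 0.00111), -0.66 for Atp5o (adjusted p = 0.00334), -0.47 for Atp5pb (adjusted p = 0.0187) and -0.87 for Atp5j (adjusted p = 0.0370). Of the 5 small membrane subunits, which shape the dimer and the cristae, Atp5k passed, at -0.76 (SE 0.28, adjusted p = 0.0322). The other 4 ranged from -0.88 for Atp5mpl to -0.55 for Atp5l, with SEs from 0.27 to 0.42. The membrane subunits thus had the lowest median of the parts of complex V, -0.77, and the largest median SE, 0.32.

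The c subunit of the proton-driven ring is encoded by 3 genes whose mature proteins are the same. Atp5g1 fell by 0.64 (SE 0.13, adjusted p = 5.06e-05) and Atp5g3 by 0.47 (SE 0.11, adjusted p = 2.33e-04). Atp5g2 was at -0.28 (SE 0.17, adjusted p = 0.268). Per kb of exon, Atp5g3 was the most abundant (5031), followed by Atp5g1 (1348) and Atp5g2 (523.2). Differences among the 3 were within their error: Atp5g1 minus Atp5g3 was -0.16 (-0.50 to 0.18), Atp5g2 minus Atp5g3 0.20 (-0.21 to 0.60) and Atp5g2 minus Atp5g1 0.36 (-0.07 to 0.79). Both Atp5g1 and Atp5g2 have a near-identical pseudogene.

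Over all complexes, subunits and assembly factors differed in how many passed. Of 46 tested subunits and cytochrome c, 29 fell, with a median of -0.63. Of 16 tested assembly factors, 4 fell (Sdhaf2, Uqcc1, Uqcc3 and Cox10), with a median of -0.32. Of all 18085 tested genes, 10.9% were lower. Assembly factors are less abundant, with a median mean count of 494 against 6560. At mean counts of 100 or more, 29 of 43 subunits fell, with a median of -0.66, and 4 of 15 assembly factors, with a median of -0.32. With the adjustment redone at that cut, 15.4% of all 11537 tested genes were lower. That cut left median mean counts of 6848 and 536, so it does not match the classes for abundance. Median exon length also differed, at 1715.5 bases for tested subunits and 2873.5 for tested assembly factors. The part of abundance and length in the difference was not tested. The median SE of the assembly factors, 0.17, was not larger than that of the subunits, 0.21. No test between the classes was made, since genes are not replicates.

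**Figure D3:**
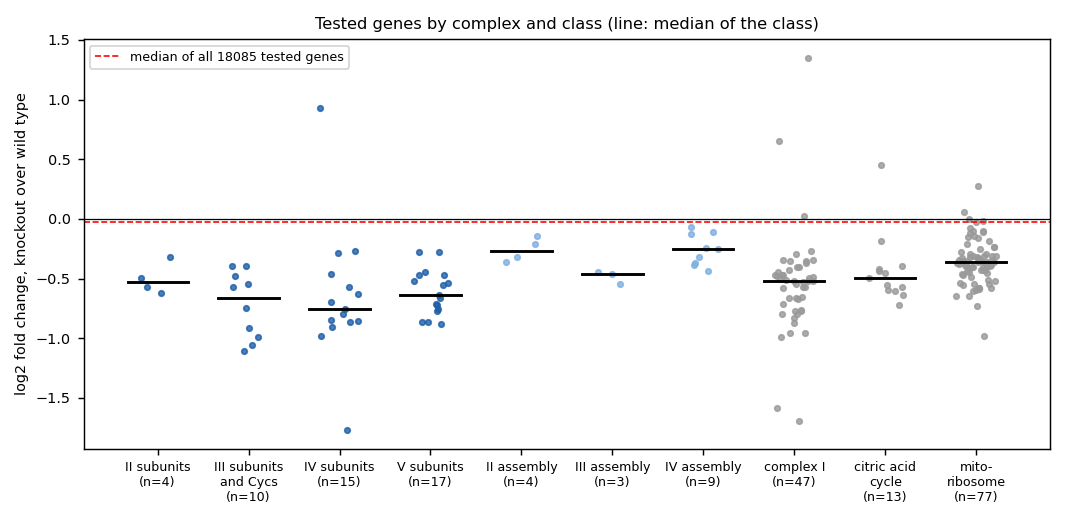
Log2 fold change, knockout over wild type (vertical axis), of each tested gene, with 1 point for each gene and a black line at the median of the class; dark blue marks subunits, light blue assembly factors and grey the classes given for comparison. The medians run from -0.76 for complex IV subunits to -0.26 for its assembly factors, and the dashed line marks -0.02, the median of all tested genes.

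Abundant members that passed and those that did not had similar median fold changes and different median SEs. Of the 47 members with a mean count of 1000 or more, 31 fell, beside 15.0% of all 6808 tested genes of that abundance. The 31 that fell had a median log2 fold change of -0.62 and the 16 that did not pass one of -0.67. Their median SEs were 0.16 and 0.28. The call is itself computed from the fold change and its SE, so a difference in SE is partly built in. The 16 ranged from -1.11 to -0.06, and Cox19, at -0.06, did not pass despite an SE of 0.08. For these 47 genes, Spearman's rho between exon length and SE was -0.55, and between mean count and SE 0.03, so the error went with length. Exon length also went with the fold change (rho 0.48), the shorter genes being lower. These are descriptions across genes that share their libraries.

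Over all 6799 tested genes of that abundance with a length and GC content, rho between exon length and fold change was 0.27, and between exon length and SE 0.02. At mean counts of 1000 or more, the 10 members with exon lengths under 1000 bases had a median of -0.80, and all 73 tested genes of that length -0.46. From 1000 to 2000 bases the medians were -0.66 for 15 members and -0.25 for 427 genes, from 2000 to 4000 bases -0.56 for 14 members and -0.10 for 1692 genes, and from 4000 bases up -0.46 for 8 members and 0.04 for 4609 genes. In each length class the members' median lay below that of the genes of like length, by 0.34 to 0.50. When a smooth trend of fold change with exon length and GC content over all genes was taken out, 23 of the 33 lower members still passed, beside 10.1% of 17980 genes, and no other did. Sdhd, Uqcrfs1, Uqcr10, Uqcc3, Cycs, Cox5b, Cox7c, Atp5c1, Atp5j and Atp5k lost the call. In that setting Cox6b2 passed as higher (1.12, adjusted p = 0.0441), beside 10.7% of genes. With the length of the longest transcript in place of the exon length, 18 members were lower, beside 10.1% of genes.

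**Figure D4:**
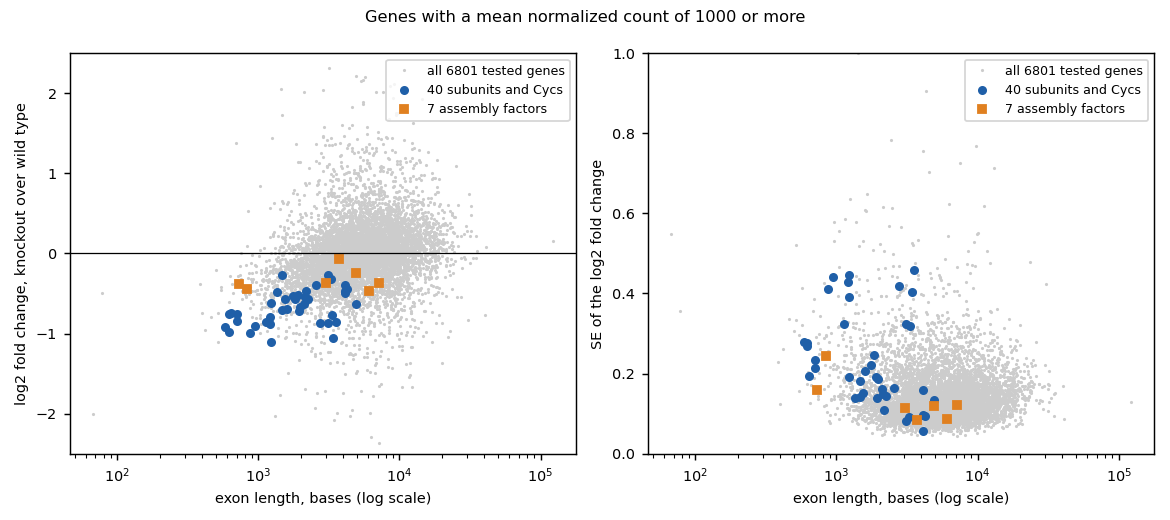
Log2 fold change, knockout over wild type (left), and its SE (right) against exon length on a log scale, for genes with a mean normalized count of 1000 or more; grey points are all 6801 tested genes with a length, blue circles the 40 subunits with cytochrome c and orange squares the 7 assembly factors. Of the 47 members, 44 lie below the median of all tested genes of their length class, and Uqcc2, Cox14 and Cox19 lie above it. Outside the axes fall 8 genes in the left panel and 4 in the right.

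The counts of passing genes also depend on the null distribution. The Wald statistics of all tested genes were spread 1.96 times as wide as a standard normal by their interquartile range. Against a null of that width 1 member, Sdha, was lower, beside 0.127% of all tested genes. With Holm's adjustment, 6 members were lower (Sdha, Uqcc1, Cox6a2, Atp5b, Atp5d and Atp5g1), beside 1.94%. Under a t null with 6 degrees of freedom none was lower, beside 0.00553%, which is H2bc21 alone, while 34 were lower at an unadjusted p under 0.05, beside 11.7%.

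Genes of the same complexes also occur under other symbols. Of 25 such nuclear genes in the table, 7 passed as lower and none as higher, beside 10.9% and 11% of all tested genes. Their median was -0.34. Tmem177 (0.30) and Coa7 (0.16) were the 2 above 0, and neither passed. Those that fell were the complex III factor Bcs1l (-0.21), Coa5 (-0.26), Cmc2 (-0.76), Higd1a (-0.64) and Higd2a (-0.39) of complex IV, and Atpaf1 (-0.63) and Tmem242 (-0.55) of complex V. Ndufa4, now counted as a complex IV subunit, was at -0.93 with an SE of 0.44 (adjusted p = 0.121). The ATP synthase inhibitor Atpif1 was at -0.53 (SE 0.40, adjusted p = 0.367).

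For comparison, 27 of 47 tested complex I genes were lower and none higher, with a median of -0.52. Of 13 citric acid cycle genes, 11 were lower and none higher, with a median of -0.49. Of 77 mitochondrial ribosomal protein genes, 28 were lower and 1 higher, with a median of -0.36. Over all tested genes, 10.9% were lower and 11% higher by the same threshold. Whether complexes II to V differ from these groups was not tested.

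The mitochondrial DNA encodes 6 further subunits of complexes III, IV and V, and none passed by DESeq2. At an unadjusted p under 0.05 this changed for 1, mt-Co1. The 2 abundant ones lay near the small nuclear subunits: mt-Co1 at -1.06 (SE 0.53, adjusted p = 0.142, mean count 980654) and mt-Cytb at -0.96 (SE 0.59, adjusted p = 0.246, mean count 575952). The other 4, from the adjacent stretch of the mitochondrial genome, had mean counts of 61.3 (mt-Co2), 4.74 (mt-Atp8), 41.7 (mt-Atp6) and 97.1 (mt-Co3), and log2 fold changes of 0.53, 0.70, 0.91 and 0.35 with SEs from 0.46 to 0.88. The neighbouring mt-Nd3 and mt-Nd4l had mean counts of 157 and 18.4, whereas the genes on either side, mt-Co1 and mt-Nd4, had 980654 and 199019. Annotated copies on chromosome 1 between 24611535 and 24616197 match mt-Co2 over 681 of 684 bases, mt-Atp6 over 678 of 681 and mt-Co3 over 783 of 784, all at 100% identity. How reads shared by such copies were counted is not given in the sources used here, and its part in these low counts was not tested. The low counts and the positive fold changes of these 4 genes are therefore uncertain.

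**Figure D5:**
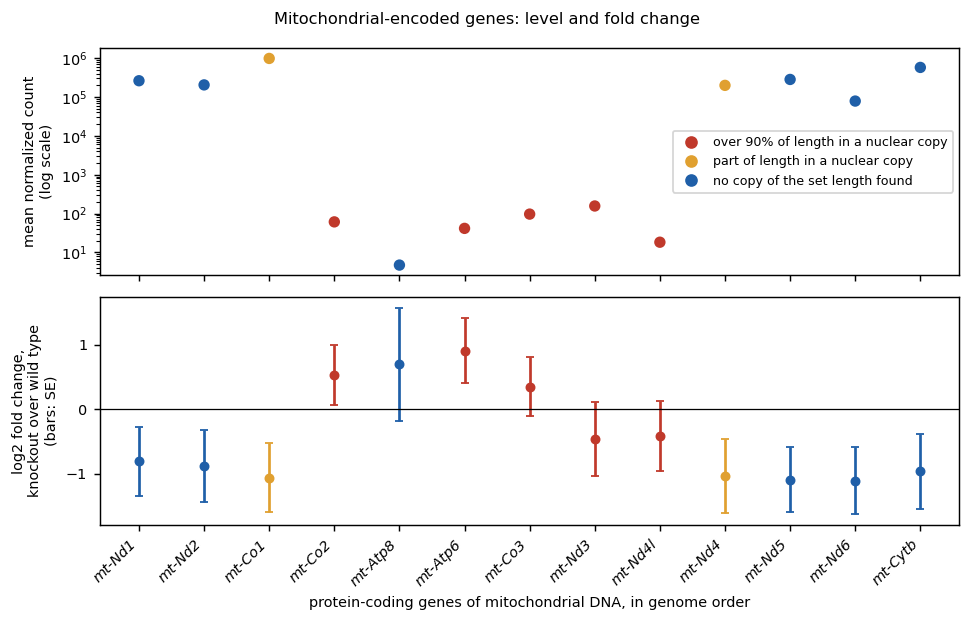
Mean normalized count on a log scale (upper panel) and log2 fold change with its SE, knockout over wild type (lower panel), of the 13 protein-coding genes of mitochondrial DNA in genome order; colours show whether an annotated nuclear copy covers over 90% of the gene, part of it or was not found. The 6 genes from mt-Co2 to mt-Nd4l have mean counts of 4.74 to 157, and the other 7 have 78481 to 980654.

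Some cell type markers also differed between the genotypes, in directions that varied by list. At an adjusted p under 0.05, 10.9% of all tested genes were lower and 11% higher by DESeq2. Of 8 interneuron markers, 5 passed as lower and none as higher. The 5 were Gad1 (-1.02), which makes GABA, Slc32a1 (-1.32), which loads it into vesicles, Lhx6 (-1.26), Npy (-2.89) and Pvalb (-2.15, mean count 10.3). Gad2 (-1.18, SE 0.49), the abundant Sst (-0.28, SE 0.29, mean count 19677) and Vip (1.56, SE 1.80, mean count 59.9) did not pass. The summed derived level of all 8 went from 99404 in wild type to 52506 in the knockout. Of 5 excitatory neuron markers, 3 rose and none fell, and the sum went from 19173 to 34065. Of 5 general neuron markers, 2 rose, Tubb3 (0.74) and Rbfox3 (0.72), and none passed as lower. Snap25 (-0.23, adjusted p = 0.0972) and Syt1 (-0.31, adjusted p = 0.0705) lay below 0 by DESeq2, and Map2 was at 0.05. Their sum was 217351 in wild type and 230340 in the knockout. The astrocyte markers, none of which passed, went from 1018 to 2014. The 8 striated muscle markers had a summed mean count of 170, most of it from Myh7 (96.2) and Acta1 (61.6), and none of the 4 tested passed. Myh6 and Tnnt2 were at 3.74 and 3.42, and Ckm, Myl2, Actc1 and Des at 1.42 or less. Of the remaining lists, 1 of 3 tested microglial markers and 2 of 5 endothelial and mural markers fell, and 1 of 5 oligodendrocyte markers rose. In bulk RNA, fewer cells of a type and less RNA per cell cannot be told apart. The part of the interneuron and excitatory markers in the respiratory fold changes was not tested.

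Features of the annotation bear on single members. An annotated pseudogene with at least 98% identity over at least 100 bases was found for 12 of the 65 genes, of which 7 were lower, and without them 26 of 50 tested genes were lower. The 7 are Sdhaf2, Uqcr11, Cycs, Cox7c, Atp5pb, Atp5h and Atp5g1. The others are Uqcrb, Cox7a2l, Atp5g2, Atp5l and Atp5md. The counts of all 12 are uncertain for this reason. Exons of 23 members overlap an exon of another gene, 20 of them on the opposite strand. The libraries keep strand, but whether the counting used it is not given in the sources used here. Among the 33 genes that fell, 10 have such an overlap, and for each the overlap with any 1 gene was at most 18.1% of the exon length.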

How the data were processed

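Polyadenylated RNA of 8 libraries, 4 wild-type and 4 H2BE knockout, was sequenced by the authors with a stranded mRNA kit, per the labels' protocols. Groups follow the genotype in the labels. The build mm10 and the tools DESeq2 and DESeq, without versions, are named per the submitters' processing notes. How reads were aligned and counted, with or without strand, and with which annotation, is not given in the sources used here. Per the file headers, the signal column the authors deposited holds each gene's mean of normalized counts. Its deposited log2 columns are the fold change and the SE. A deposited score column holds the Wald statistic, the fold change over its SE. The deposited p-value and its adjusted form are those of the authors' DESeq2 fit, and repeating the Benjamini-Hochberg adjustment matched within 0.757%.

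Of 26229 genes, 18085 had an adjusted p and count as tested, 8135 had a p alone and 9 had none. A missing adjusted p stayed missing. No other column was left unused (0). Mean counts summed to 3.96e+07, and the depth of single libraries was not analysed here, so precision is known through the SE alone. The header gives no direction, so the sign was taken from H2bc21.

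Computed here were counts and medians of genes with an adjusted p under 0.05, 95% normal intervals (log2 fold change and SE), counts per kb of annotated exon, and differences between paralogs. A derived level for each genotype splits the mean count by the fold change with equal weights. Genes were matched by identifier to GENCODE M21 (GRCm38), which gave 26039 matches. The trend with log exon length and GC was a spline with 5 degrees of freedom each, and its removal and both adjustments were tested on simulated data. Pseudogene copies were aligned with BLAST 2.17.0, with a minimum of 98% identity over 100 bases. Promoters are RefSeq windows of GRCm38.p6. Python 3.11.15, numpy 2.4.6, scipy 1.17.1, pandas 2.3.3, statsmodels 0.14.6 and patsy 1.0.2 were used. Alternatives were other thresholds (0.01, 0.1), no filter or a mean count of at least 100, Holm's adjustment, an empirical null, a t null, centring, the length and GC trend, and subsets of members.

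Members, gene lists and tests were chosen with earlier results of these data known. Full statistics go to up to 5 members of smallest adjusted p in each complex, to paralog families with tissue isoforms, to the highest and lowest fold change and to H2bc21, and every member may be named.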

Additional observations from a re-analysis of the deposited data

How the results depend on the processing

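No paired analysis was possible because the table holds no values per library, and for the same reason no replicate could be left out. The lower members numbered 33. They were 26 and 41 at adjusted p thresholds of 0.01 and 0.1 (all genes tested: 6.59% and 14.3%), 30 without a filter on low counts (6.64%), 35 at mean counts of at least 100 (15.4%), 33 after either centring (9.81% and 10.1%), 31 without members that have a -ps row, and 29 for subunits with cytochrome c. Larger changes came from Holm's adjustment (6 in all, and 1, 1, 1 and 3 in complexes II, III, IV and V), the empirical null (1 in all, and 1, 0, 0 and 0) and the t null (0 in all, and 0 in each complex). Removing the length and GC trend left 23 in all and 4 of 8 in complex III, and gave 1 higher member, Cox6b2. With the longest transcript in that trend, an alternative chosen after seeing the data, 18 were lower and 1 was higher. Complex V went from 11 to 7 at a threshold of 0.01. The median log2 fold change stayed between -0.63 and -0.45, and no paralog difference that could be recomputed without the trend changed sign. Of 29 genes with full statistics, none changed sign, 20 lost the call under the empirical null, 21 under the t null, and Sdhd and Uqcrfs1 without the trend. The cause of these changes was not tested. Depth per library is not known, so the table's filter on low counts sets what was tested: Cox4i2, Cox8b and Cox20b lie under it.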

Other observations

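The near-identical copies of mitochondrial genes on chromosome 1 have rows of their own in the authors' deposited table. The copy of mt-Co1 (Gm29216, over 483 of 1545 bases at 99.8% identity) had a mean count of 72.9 and fell, with a log2 value of -2.52 (SE 0.68, adjusted p = 0.00214), whereas mt-Co1 itself was at -1.06. Copies of mt-Co2 (Gm28661), mt-Atp6 (Gm10925) and mt-Co3 (Gm28437) had mean counts of 67.1, 63.2 and 46.7 and log2 values of -1.68, -1.56 and -1.46, none past the threshold (adjusted p = 0.0797, 0.0752 and 0.0654). For these 3 the copy and the mitochondrial gene thus had similar counts and opposite signs. No annotated copy of that length was found for mt-Atp8, whose mean count was the lowest of all, 4.74. The search covered annotated pseudogenes only. Unannotated bases of chromosome 1 between the copies of mt-Co2 and mt-Atp6, the protein-coding genes on either side of mt-Atp8, were not searched. A copy of mt-Atp8 there would have been missed.

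Rows that the table leaves without a symbol include 7 that the annotation names as copies of members, such as Uqcrh-ps2 and Cox6c2. Their highest mean count was 6.50, and none passed.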
